A study of Mus musculus with 6 samples.

Results

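The maintenance methylation factor Uhrf1, its relative Uhrf2 and 4 genes whose products act on or with UHRF1 (Usp7, Hells, Dppa3 and Pramel7) were taken by name from the 53390 genes of the series that had a matched transcript. All 6 passed the filter on low counts. The cells were TKO mouse embryonic stem cells (mESCs), a line with both copies of Dnmt1, Dnmt3a and Dnmt3b inactivated, made from male J1 mESCs of the 129S4/SvJae strain and grown without feeder cells. Poly(A)-selected, strand-specific RNA-seq libraries were made from 500 ng of total RNA, 3 from cells in serum (TKO-serum) and 3 from cells moved to 2i (TKO-2i). Serum medium held 15% fetal calf serum and LIF at 500 U/ml. 2i medium was free of serum, held LIF at 1000 U/ml, and contained 1 µM PD0325901, which inhibits MEK, and 3 µM CHIR99021, which inhibits GSK3, with 14 days of culture in it. Both conditions come from 1 line and both lack the methyltransferases, so the comparison asks how RNA of these genes differs between media when DNA methylation cannot be maintained.

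UHRF1 is known to bind hemimethylated DNA and methylated histone H3 behind the replication fork, to ubiquitinate histone H3 and so to bring DNMT1 to newly made strands. USP7 is a deubiquitinase that stabilises UHRF1, HELLS is a chromatin remodeller needed for methylation of repeats, and UHRF2 is a paralogue that does not replace UHRF1 in maintenance. DPPA3 (also called STELLA) displaces UHRF1 from chromatin and moves it out of the nucleus, and PRAMEL7 brings a cullin ligase to UHRF1 that leads to its degradation, so that both lower maintenance methylation in early embryos and naive stem cells.

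Estimated counts summed to 46228700, 44180642 and 43896549 in the TKO-2i libraries, in the order of replicates 1, 2 and 3 used throughout, and to 38274042, 51932739 and 44827609 in the TKO-serum libraries. A gene at 3 counts, used here as the floor, lay between 0.0578 and 0.0784 CPM (counts scaled to library size). The floor used these totals as they stand, without the normalization factors that the CPM of genes include. The floors cover counting error only, and the intervals from edgeR also hold the spread between replicates. Replicate 2 stood apart in each condition. Between TKO-2i libraries, the mean chi-square per gene was 45 for replicates 1 and 2, 27.4 for replicates 2 and 3, and 7.08 for replicates 1 and 3. Between TKO-serum libraries it was 16, 11 and 4.69 for the same pairs. None of the pairs was as close as counting noise alone would give. Results without replicate 2 are stated below where they differ, and without it in both conditions Pramel7, Uhrf1, Dppa3, Uhrf2 and Usp7 kept their calls. The labels call the replicates biological, and the p-values measure the spread between these samples.

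Markers of the labelled cell type were present throughout. Pou5f1 lay between 982 and 1057.0 TPM (a level scaled for transcript length and library size) in TKO-2i and between 1248.8 and 1252.8 TPM in TKO-serum, and the 6 mESC markers summed to between 2680.3 and 3280.7 TPM in every library. Of those 6 genes, Nanog and Esrrb rose, Sox2, Zfp42 and Tdgf1 fell, and Pou5f1 did not pass the test (median -0.20 in log2 fold change). Over all genes tested, 31.9% were called higher and 30.6% lower. Nanog lies on chromosome 6, where 53.6% of the tested genes were called higher. Pou5f1 was called lower without TKO-2i replicate 1 (-0.26) and without replicate 2 of both conditions (-0.13). RNA of the inactivated genes was still counted. Dnmt1 had 29.1, 34.6 and 29.3 TPM in TKO-2i and 25.7, 28.6 and 27.9 TPM in TKO-serum. Dnmt3a had 4.30, 5.19 and 4.54 TPM in TKO-2i and 21.3, 23.0 and 22.7 TPM in TKO-serum, and Dnmt3b had 6.71, 9.53 and 8.49 TPM against 18.8, 20.9 and 20.7 TPM. Since RNA from outside a deleted part can still be made, these levels do not check the genotype.

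Of the 6 genes, 5 passed the test at an adjusted p-value under 0.05 in either direction, which 62.5% of all 18177 genes tested also did. Pramel7, Uhrf1 and Dppa3 rose in TKO-2i, where 31.9% of all genes were called higher. Dppa3 lies on chromosome 6, where 53.6% of the tested genes were called higher. Uhrf2 and Usp7 fell, where 30.6% of all genes were called lower. Hells was not called. Their median log2 fold change was 0.16, beside 0.01 over all genes tested. In these bulk samples, a lower share of cells with a transcript and less of it per cell cannot be told apart.

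**Figure D1:**
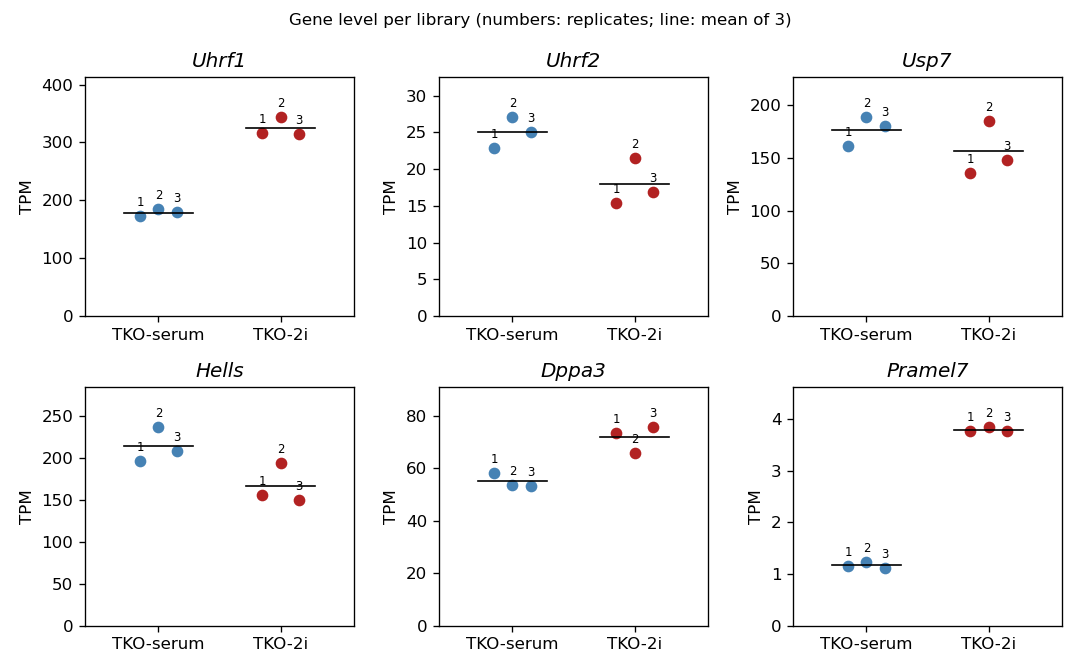
Level of each gene in TPM (vertical axis, from 0) in each library of TKO-serum (blue) and TKO-2i (red), as points with the replicate number and lines at means of 3. Uhrf1 and Pramel7 lie higher in all TKO-2i libraries, and the Usp7 libraries of the conditions overlap on this scale.

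Uhrf1 (ENSMUSG00000001228, plus strand of chromosome 17, 56303321 to 56323486 in GRCm38) stood at 993, 910 and 974 CPM in TKO-2i and at 499, 481 and 488 CPM in TKO-serum. Every TKO-2i library lay far above every TKO-serum library, and the libraries of each condition differed little among themselves. The means were 959 ± 43.4 CPM (SD, n = 3) and 490 ± 9.03 CPM (SD, n = 3). This gave a log2 fold change of 0.97 (standard error 0.05; edgeR, adjusted p = 9.6e-07), or 1.96-fold. Of all genes tested, 8.29% had a higher log2 fold change.

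The rise of Uhrf1 was carried by transcripts from both annotated start regions of its protein-coding transcripts. Of 7 annotated transcripts, 6 held at least 1% of the TPM of the gene in some library. Uhrf1-201, the most abundant, held 46.8%, 52.5% and 45.6% of the TPM in TKO-2i and 45.8%, 45.9% and 39.2% in TKO-serum. Its share overlapped between conditions. Uhrf1-203, from the same start region, held 24.2%, 18.1% and 22.8% in TKO-2i and 30.8%, 28.4% and 32.2% in TKO-serum, without overlap. Uhrf1-204, from the start region 992 bases downstream, held 21.9%, 19.6% and 24.5% against 15.4%, 19.2% and 21.6%, with overlap. Uhrf1-202 held at most 3.62%, and the retained-intron transcripts Uhrf1-205 and Uhrf1-206 held at most 4.15% and 2.86%. Uhrf1-207 had 12.4, 6.66 and 10.5 estimated counts in TKO-2i and 0 in each TKO-serum library, too few for a test.

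At the transcript level, 23.5% of the 48564 transcripts tested were called in either direction. Of the 30 transcripts of the 6 genes that were tested, 7 were called, 5 higher and 2 lower. They included Uhrf1-201 (log2 fold change 1.06, standard error 0.09; edgeR, adjusted p = 0.0006), Uhrf1-204 (1.16, standard error 0.16; adjusted p = 0.0035), Uhrf1-202 (1.62, standard error 0.39; adjusted p = 0.029) and Uhrf1-205 (1.01, standard error 0.21; adjusted p = 0.017). Uhrf1-203, at a log2 fold change of 0.44 with a standard error of 0.16 (edgeR, adjusted p = 0.11), was not called. The files do not give the uncertainty of dividing reads between transcripts that share exons, so the test does not hold it.

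Grouped by start region, a grouping chosen after the values were seen, the protein-coding transcripts gave the same order in every library. The upstream region (Uhrf1-201 and Uhrf1-203) had 225, 243 and 215 TPM in TKO-2i and 132, 138 and 128 TPM in TKO-serum. The downstream region (Uhrf1-202, Uhrf1-204 and Uhrf1-207) had 77.2, 80.4 and 83.9 TPM in TKO-2i and 30.4, 38.7 and 40.1 TPM in TKO-serum. Both regions were higher in all TKO-2i libraries, by ratios of mean TPM of 1.72 and 2.21. The downstream share was 25.6%, 24.9% and 28.1% in TKO-2i and 18.7%, 22.0% and 23.9% in TKO-serum. The shares did not overlap but came close, and the difference in share between regions was not tested separately. The same transcripts also differ in an internal exon. It starts at 56313041 in Uhrf1-201 and Uhrf1-204 and at 56313065 in Uhrf1-202 and Uhrf1-203. Shares of single transcripts, such as that of Uhrf1-203, therefore do not separate the choice of start from that of this exon.

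**Figure D2:**
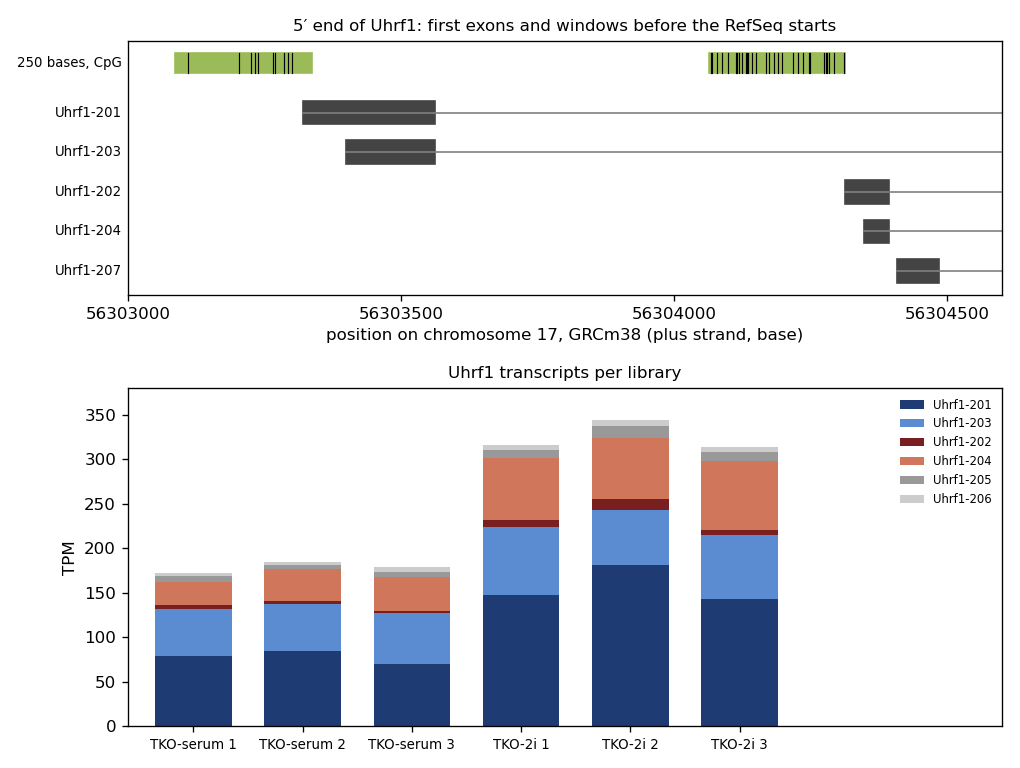
Top, first exons (boxes) of the protein-coding Uhrf1 transcripts by position on chromosome 17 of GRCm38, with the 250 bases before each RefSeq start (green) and their CpG sites (black lines, 10 and 30). Bottom, TPM of each Uhrf1 transcript with at least 1% of the gene, stacked per library, with a taller stack in each TKO-2i library.

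The use of transcripts within a gene was tested over 10040 genes with several tested transcripts. The planned test, edgeR's diffSpliceDGE, called 12.0% of them and 0 of the 6 genes. That test called too many genes on simulated counts. A limma test with a variance for each transcript, added after the data were seen, called 4.14% of the genes and 0 of the 6. For Uhrf1 the adjusted p-values for transcript use were 0.07 (diffSpliceDGE) and 0.21 (limma), and a difference in use was therefore not shown. With diffSpliceDGE, Uhrf1 was called without TKO-2i replicate 2 (adjusted p = 0.026), TKO-serum replicate 1 (0.014) or TKO-serum replicate 3 (0.028), and Hells without TKO-2i replicate 2 (0.011).

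The table of RefSeq promoters used here (GRCm38.p6) held 5 of the 6 genes, and Dppa3 was not in it. The windows before the Uhrf1 starts are shown because the transcripts from both starts were higher in TKO-2i, and the Pramel7 window because this gene had the largest log2 fold change of the 6. Capitals mark CpG dinucleotides, 10 in the upstream Uhrf1 window, 30 in the downstream window and 1 in the Pramel7 window, beside a median of 6 over all 32851 promoters. The upstream Uhrf1 window reaches 16 bases into the first exon of Uhrf1-201. The downstream window lies within an intron of Uhrf1-201 and Uhrf1-203. The Pramel7 window holds 26 bases of an exon of the processed transcript Pramel7-203.
Uhrf1 upstream, chr17:56303087-56303336, plus strand: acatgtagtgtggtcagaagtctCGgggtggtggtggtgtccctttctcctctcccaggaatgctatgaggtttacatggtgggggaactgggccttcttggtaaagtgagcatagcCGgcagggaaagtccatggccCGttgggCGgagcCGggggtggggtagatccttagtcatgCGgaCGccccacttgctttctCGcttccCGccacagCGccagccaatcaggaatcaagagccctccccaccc
Uhrf1 downstream, chr17:56304063-56304312, plus strand: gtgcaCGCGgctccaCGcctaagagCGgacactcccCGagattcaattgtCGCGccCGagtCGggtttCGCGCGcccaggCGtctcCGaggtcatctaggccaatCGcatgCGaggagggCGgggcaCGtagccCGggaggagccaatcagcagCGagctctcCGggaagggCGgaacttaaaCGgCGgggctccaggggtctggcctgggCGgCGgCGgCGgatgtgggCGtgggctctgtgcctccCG
Pramel7, chr2:87492419-87492668, minus strand: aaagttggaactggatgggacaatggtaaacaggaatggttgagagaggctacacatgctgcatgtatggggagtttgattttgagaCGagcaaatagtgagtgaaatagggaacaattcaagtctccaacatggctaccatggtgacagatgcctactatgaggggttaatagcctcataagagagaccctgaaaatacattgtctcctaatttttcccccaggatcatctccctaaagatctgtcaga

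Letter motifs were searched on both strands of these 250 bases in the 6 windows of the 5 genes. They were TTTGGCGC, TTTCCCGC, TTTGGCGG and TTTCCCGCC for E2F, CTTTGA for TCF/LEF, TTCNNNGAA for STAT, CAAGGTCA for ESRRB and CCGGAAG for ETS, and TTTCCCGCC contains TTTCCCGC. Of all promoters, 0.417%, 0.895%, 0.444% and 0.441% held the E2F motifs in that order. CTTTGA was in 13.8%, TTCNNNGAA in 7.02%, CAAGGTCA in 1.33% and CCGGAAG in 6.91%. The only match was TTTCCCGC in the Hells window, starting 62 bases before the RefSeq start on the plus strand. This window holds 75 bases of the first exon of Hells-201, and the match lies within them, so it is transcribed sequence in that annotation. The windows of Hells, Uhrf2 and Usp7 held 28, 23 and 55 CpG. The Usp7 window lies before the start of Usp7-208, holds 78 exonic bases, and the start of the more abundant Usp7-207 at 8792308 was not searched.

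Uhrf2 (ENSMUSG00000024817, plus strand of chromosome 19, 30030513 to 30093722) went the other way from its paralogue. It had 32.1, 34.8 and 32.9 CPM in TKO-2i and 45.6, 48.2 and 46.3 CPM in TKO-serum. All TKO-2i libraries lay below all TKO-serum libraries, with means of 33.3 ± 1.38 and 46.7 ± 1.30 CPM (SD, n = 3). The log2 fold change was -0.49 (standard error 0.05; edgeR, adjusted p = 6.3e-05), a level 1.40-fold lower. Uhrf2-201, its only protein-coding transcript, held 78.2%, 63.2% and 69.9% of the TPM in TKO-2i and 79.0%, 74.1% and 75.8% in TKO-serum. Its share was lowest in TKO-2i replicate 2, where retained-intron transcripts held 36.8%. Uhrf2-201 itself fell, with a log2 fold change of -0.58 (standard error 0.06; edgeR, adjusted p = 0.0012).

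Usp7 (ENSMUSG00000022710, minus strand of chromosome 16, 8689595 to 8792308) had 473, 531 and 491 CPM in TKO-2i and 535, 579 and 554 CPM in TKO-serum. The conditions did not overlap in CPM but lay close, and in TPM they overlapped, at 136, 185 and 148 in TKO-2i and 161, 189 and 180 in TKO-serum. Its log2 fold change was -0.16 (standard error 0.06, 95% interval -0.29 to -0.02; edgeR, adjusted p = 0.045). The call was lost without TKO-2i replicate 1 or 3 (adjusted p = 0.1 and 0.12) and without TKO-serum replicate 1, 2 or 3 (adjusted p = 0.06, 0.15 and 0.11). It was kept without TKO-2i replicate 2 (-0.20, edgeR, adjusted p = 0.0032) and lost on TPM-based scales. The abundant transcript Usp7-207, with 58.5% to 66.8% of the TPM, fell with a log2 fold change of -0.25 (standard error 0.06; edgeR, adjusted p = 0.02).

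Hells (ENSMUSG00000025001, plus strand of chromosome 19, 38930915 to 38971051) had 259, 347 and 270 CPM in TKO-2i and 318, 395 and 325 CPM in TKO-serum. Replicate 2 was the highest library of each condition, and the conditions overlapped through it. In TPM, at 156, 194 and 149 against 196, 237 and 208, they did not overlap. The log2 fold change was -0.25 (standard error 0.12, 95% interval -0.53 to 0.04; edgeR, adjusted p = 0.12). With replicate as a block, the log2 fold change of -0.25 was called (edgeR, adjusted p = 0.00053). Without TKO-2i replicate 2 it was -0.38 (edgeR, adjusted p = 0.0026), and without replicate 2 of both conditions, an alternative added after the data were seen, it was -0.29 (adjusted p = 0.00028). Hells-201 held between 65.2% and 69.0% of the TPM in all 6 libraries. The processed transcript Hells-202 held 27.1%, 16.0% and 23.7% in TKO-2i and 19.6%, 12.2% and 17.9% in TKO-serum, lowest in replicate 2 of each condition. The short protein-coding transcript Hells-205 held 5.55%, 12.2% and 5.04% against 11.1%, 16.5% and 13.4%, highest in replicate 2 of each condition.

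Dppa3 (ENSMUSG00000046323, plus strand of chromosome 6, 122626410 to 122630272) had 41.5, 34.2 and 42.9 CPM in TKO-2i and 31.0, 27.1 and 27.1 CPM in TKO-serum. The conditions did not overlap, and TKO-2i replicate 2 lay closest to the serum libraries. The means were 39.5 ± 4.70 and 28.4 ± 2.28 CPM (SD, n = 3), with a log2 fold change of 0.48 (standard error 0.10; edgeR, adjusted p = 0.0024). Dppa3-201 held at least 97.2% of the TPM in every library, and was not called at the transcript level (0.44, standard error 0.13; edgeR, adjusted p = 0.053). On chromosome 6, 53.6% of the 866 tested genes were called higher, beside 31.9% over all genes. The median over these 866 genes lay at 0.41 in log2 fold change. Over the 645 of them with a mean of at least 1 CPM it lay at 0.50, beside 0.07 over all tested genes at that level. The chromosomes of the other 5 genes had medians between 0.01 and 0.05 over all their tested genes. At a mean of at least 1 CPM these medians lay between 0.07 and 0.09. The part of this chromosome-wide difference in the value of Dppa3 was not tested.

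Tested protein-coding genes near Dppa3 did not move as a block. On the side of lower coordinates, Gdf3 (-0.10, edgeR, adjusted p = 0.19) was not called, and the RNA editing gene Apobec1 rose (0.52, adjusted p = 0.00023). On the other side, the pluripotency factor Nanog (0.60, edgeR, adjusted p = 2.7e-05) and the glucose transporter Slc2a3 (0.41, adjusted p = 4.7e-05) rose, and Foxj2 (0.09, adjusted p = 0.34) was not called. These values are log2 fold changes.

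Pramel7 (ENSMUSG00000025839, minus strand of chromosome 2, 87489087 to 87497093) was the least abundant of the 6 genes and had their largest fold change. It had 3.30, 3.46 and 3.59 CPM in TKO-2i and 1.17, 1.05 and 1.15 CPM in TKO-serum, from 148, 152 and 153 against 45, 56 and 53 estimated counts. The conditions were well separated and replicates lay close together. The log2 fold change was 1.62 (standard error 0.12; edgeR, adjusted p = 8.4e-06), or 3.07-fold, and 3.39% of all genes tested had a higher one. The protein-coding transcript Pramel7-201, which starts at 87492418, held 49.2%, 60.8% and 57.4% of the TPM in TKO-2i and 67.7%, 57.0% and 76.6% in TKO-serum, with overlap. It rose with a log2 fold change of 1.45 (standard error 0.20; edgeR, adjusted p = 0.0035). The other 3 transcripts are processed transcripts that start upstream, between 87496890 and 87497093. Of these, Pramel7-202 had 9.79, 4.79 and 3.41 estimated counts in TKO-2i and 0 in each TKO-serum library, so that shares of this gene rest on few reads.

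Copies of these genes elsewhere were searched as runs of 30 identical bases in the transcripts of other genes. Of the runs in Uhrf1 transcripts, 24.9% were also in another gene, mostly the processed pseudogene Gm5648, which had at most 3.16 estimated counts in a library. Of the Dppa3 runs, 30.4% were shared, mostly with the pseudogene Dppa3-ps, at most 1.01 estimated counts. Of the Pramel7 runs, 9.29% were shared, most of them with the pseudogene Gm5949, at most 1.00 estimated count. For Uhrf2, Usp7 and Hells the shares were 0.490%, 1.29% and 1.46%. Reads from such copies that were assigned to the parent gene cannot be seen in these values, so the levels of Uhrf1, Dppa3 and Pramel7 are uncertain to that extent. An annotated gene overlapped only Usp7, the small nuclear RNA gene Gm25805, with at most 4 estimated counts.

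Levels per transcript length could be compared between genes in TPM. In TKO-2i the order of the means was Uhrf1 (325), Hells (166), Usp7 (156), Dppa3 (71.9), Uhrf2 (17.9) and Pramel7 (3.80). Neighbours in this order did not overlap except Hells and Usp7. In TKO-serum the order was Hells (214), Uhrf1 (179), Usp7 (177), Dppa3 (55.1), Uhrf2 (25.0) and Pramel7 (1.16), and only Uhrf1 and Usp7 overlapped. Summed over all transcripts of each gene, Uhrf1 thus stood above the others in TKO-2i but not in TKO-serum. Noncoding transcripts count in these sums, and the processed transcript Hells-202 held 19.6%, 12.2% and 17.9% of Hells in TKO-serum.

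Ratios of TPM within a library set each gene against Uhrf1. The ratio of Dppa3 to Uhrf1 was 0.233, 0.192 and 0.242 in TKO-2i and 0.339, 0.289 and 0.298 in TKO-serum. Although Dppa3 rose, its ratio to Uhrf1 was lower in all TKO-2i libraries, with a log2 difference of -0.48. The ratio of Pramel7 to Uhrf1 was 0.0119, 0.0112 and 0.0120 in TKO-2i and 0.00670, 0.00661 and 0.00618 in TKO-serum, a log2 difference of 0.85. It was the only 1 of the 5 ratios that was higher in TKO-2i. The ratios of Uhrf2, Usp7 and Hells were lower in all TKO-2i libraries, with log2 differences of -1.35, -1.04 and -1.23. The 5 ratios share Uhrf1 as denominator, so its own rise (0.86 with limma on log2(TPM + 1)) lowers each of them. They are therefore not 5 independent results. Each of the 5 had p = 0.1 in an exact two-sided permutation test and 0.1 after adjustment over the 5, and 0.1 is the smallest p that 3 against 3 libraries allow.

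**Figure D3:**
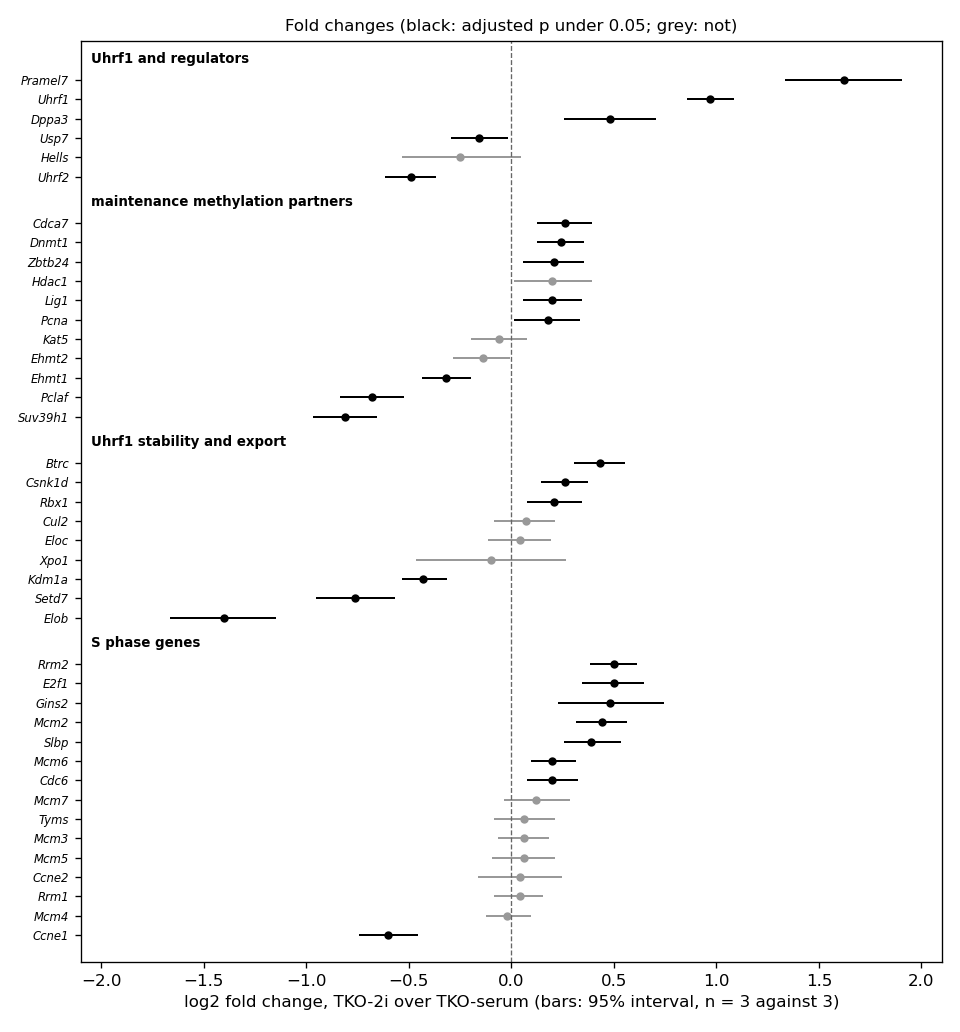
Log2 fold change of TKO-2i over TKO-serum (horizontal axis) for the 6 genes and 3 lists, with 95% intervals from edgeR (n = 3 in each condition), in black at an edgeR adjusted p under 0.05 and grey otherwise. Pramel7 and Elob lie at the ends, at 1.62 and -1.40.

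Among 11 partners of maintenance methylation, 5 rose, 3 fell and 3 did not pass, beside 31.9% called higher and 30.6% lower over all genes. Their median was 0.18 in log2 fold change, beside 0.01 over all genes. The rises were small, the largest being that of Cdca7, which recruits HELLS, at 0.26 (standard error 0.06; edgeR, adjusted p = 0.0042). Dnmt1 (0.24), the zinc finger gene Zbtb24 (0.21), the ligase gene Lig1 (0.20) and the sliding clamp gene Pcna (0.18) also rose in log2 terms. The largest falls were those of the histone H3K9 methyltransferase gene Suv39h1 (-0.81) and Pclaf (-0.68), whose product binds PCNA and is ubiquitinated by UHRF1. Ehmt1 also fell (-0.32). With limma on log2(TPM + 1), Dnmt1 (0.17), Zbtb24 (0.10), Lig1 (0.10) and Pcna (0.09) were not called, and the same held on log2(TPM + 0.1) (0.18, 0.11, 0.11 and 0.09). The calls of Pcna, Lig1 and Zbtb24 were lost without TKO-2i replicate 1 (0.13, 0.15 and 0.19), TKO-2i replicate 3 (0.15, 0.18 and 0.19), TKO-serum replicate 2 (0.14, 0.18 and 0.20) or TKO-serum replicate 3 (0.16, 0.22 and 0.17).

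Among 9 genes that act on UHRF1 stability or export, 3 rose, 3 fell and 3 did not pass, with a median of 0.04. Over all genes tested, 31.9% were called higher and 30.6% lower. The elongin B gene Elob, a subunit of the cullin ligase that PRAMEL7 joins, had 217, 213 and 216 TPM in TKO-2i and 656, 608 and 624 TPM in TKO-serum. It fell in every TKO-2i library, with a log2 fold change of -1.40 (standard error 0.11; edgeR, adjusted p = 1.1e-05). Of the other subunits, Rbx1 rose by a log2 fold change of 0.21, and Cul2 (0.07) and Eloc (0.04) did not pass. The call of Rbx1 was lost without TKO-2i replicate 1 (0.18) or 3 (0.19). Btrc (0.43) and Csnk1d (0.26), a ligase substrate receptor and a kinase, rose, but were not called with limma on log2(TPM + 1) (0.21 and 0.17), nor was Csnk1d on log2(TPM + 0.1) (0.17). The demethylase gene Kdm1a (-0.43) and the methyltransferase gene Setd7 (-0.76) fell. The exportin gene Xpo1, at -0.10 with a standard error of 0.16, did not pass. It was called lower without TKO-2i replicate 2 (-0.29) and without replicate 2 of both conditions (-0.18), and turned its sign without TKO-serum replicate 2 (0.02).

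Uhrf1 and Hells RNA is known to be cell cycle regulated, so 15 genes with a peak around S phase were set beside them. Of these, 7 rose, 1 fell and 7 did not pass, with a median log2 fold change of 0.12. Over all genes tested, 31.9% were called higher and 30.6% lower. Rrm2 (0.50), E2f1 (0.50), Gins2 (0.48) and Mcm2 (0.44) had the largest rises and Ccne1 (-0.60) fell. Mcm2 lies on chromosome 6, where genes with a mean of at least 1 CPM had a median of 0.50. The summed level of the list was 2068.3, 2189.4 and 2042.6 TPM in TKO-2i and 1981.4, 2098.3 and 2024.8 TPM in TKO-serum, with overlap. The largest of these log2 fold changes was about as large as that of Dppa3 and below the 0.97 of Uhrf1. The cell cycle makeup of the cultures was not measured, and its part in the Uhrf1 level was not tested.

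In the list of de novo methylation genes, 3 fell and 1 rose, with a median log2 fold change of -1.57. Over all genes tested, 30.6% were called lower and 31.9% higher. Dnmt3l, a cofactor gene that was not a target of the knockout, had 45.2, 46.5 and 49.2 TPM in TKO-2i and 486, 506 and 504 TPM in TKO-serum. Its log2 fold change was -3.31 (standard error 0.07; edgeR, adjusted p = 1.7e-08). Prdm14, a repressor of this machinery, rose with a log2 fold change of 1.28 (standard error 0.06; edgeR, adjusted p = 7.6e-07).

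Markers of other cells and states were counted as well. Their calls here and in the next paragraph stand beside 31.9% of all genes called higher and 30.6% lower. The 7 fibroblast markers summed to between 5.94 and 7.03 TPM in all libraries, with Thy1 the most abundant. Col3a1, Dcn and Lum were near 0, at most 0.259 TPM, and not tested. Of the other 4 genes 1 rose and 2 fell (median -0.23), from 1.62 for Pdgfrb to -1.55 for Col1a2. The 6 primitive endoderm markers summed to between 4.64 and 5.75 TPM in TKO-2i and between 14.4 and 19.0 TPM in TKO-serum, with 5 falls and 0 rises (median -2.13). Gata4 (-0.17, not called) was the most abundant of them in every TKO-2i library and Dab2 (-4.35) in every TKO-serum library. The 6 trophoblast markers summed to between 43.4 and 47.7 TPM in TKO-2i and between 36.1 and 39.1 TPM in TKO-serum, with 3 rises and 2 falls (median 0.35), from 4.28 for Cdx2 to -3.33 for Gata3. These medians and values are log2 fold changes. Tfap2c made up most of the trophoblast sum, and it is also expressed in naive stem cells.

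The 6 primed epiblast markers summed to between 19.0 and 25.6 TPM in TKO-2i and between 49.9 and 53.9 TPM in TKO-serum, with T the most abundant in every TKO-2i library and Otx2 in every TKO-serum library. Of these 5 fell (median -1.93), among them Fgf5, which had at most 2 estimated counts in TKO-2i and is given no fold because these lie under the floor, and T rose with a log2 fold change of 5.58 (standard error 0.32; edgeR, adjusted p = 1.7e-06). The 6 markers of 2-cell-like cells all fell, from a sum between 30.9 and 34.1 TPM in TKO-serum to a sum between 1.55 and 1.79 TPM in TKO-2i, with Tmem92 the most abundant. The median log2 fold change of -6.03 rests on TKO-2i counts near or under the floor, and Zscan4c, with at most 5 estimated counts in TKO-2i, is given no fold. Usp17la had the smallest fall (-2.60). Several of them are known to have near-identical copies, so that their separate levels are uncertain. The 5 germ cell markers, set beside Dppa3 because it also marks primordial germ cells, gave 2 rises and 3 falls (median -1.61), with a sum between 168 and 193 TPM in TKO-2i and between 91.6 and 99.0 TPM in TKO-serum. Dazl rose (log2 fold change 1.71, edgeR, adjusted p = 1.3e-07) with 153, 179 and 162 TPM against 58.3, 60.2 and 56.9 TPM, while the specification gene Prdm1 fell (-2.50, adjusted p = 6.3e-08). No gene of these lists was at 0 counts in all libraries. Their part in the levels of the 6 genes was not tested.

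Genes with the most similar profiles were sought by the Euclidean distance of mean-centred log2 CPM over the 6 libraries, among 12873 protein-coding genes with a mean of at least 1 CPM. Nearest to Uhrf1 were Eml2, Emc3 and Pgm2, each at a distance of 0.05, with Emc3 on chromosome 6. Eml2 had mean levels of 54.2 (TKO-2i) and 28.3 (TKO-serum) CPM. Nearest to Dppa3 were the nucleoside diphosphate kinase gene Nme2 (0.04), Morn2 (0.06) and Ptrh2 (0.06). Nme2 had 596, 482 and 598 CPM in TKO-2i and 436, 375 and 380 CPM in TKO-serum, and shared with Dppa3 a dip in TKO-2i replicate 2. Nearest to Pramel7 were the potassium channel gene Kcns3 (0.09), the semaphorin gene Sema4f (0.10, on chromosome 6) and the arginine deiminase gene Padi2 (0.11). Kcns3 had mean levels of 14.3 (TKO-2i) and 4.69 (TKO-serum) CPM.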

How the data were processed

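RNA-seq of TKO mESCs was analysed in 3 TKO-2i and 3 TKO-serum libraries, grouped by the sample labels. The authors deposited an estimated count for each transcript, not normalized, in the column layout of salmon. The authors deposited TPM for each transcript as well, scaled for length and library. The submitters' processing notes name mm10, and the quantifier, its version and its index are not given in the sources used here. Reads shared by transcripts are divided between them, so shares of transcripts carry an error that the files do not give. Which sequencing pool held each library is not given in the labels.

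Transcripts were matched by identifier to GENCODE mouse M21 (136100 of 136288, 99.86%), estimated counts and TPM were summed per gene, and counts were rounded. Genes were filtered with filterByExpr, normalized by TMM and tested with the quasi-likelihood test of edgeR 4.0.16 (R 4.3.3), with Benjamini-Hochberg adjustment over all genes and a threshold of 0.05. CPM used TMM-scaled library sizes, and standard errors were derived from the fold change and F. Transcripts were fitted likewise, and transcript use was tested with diffSpliceDGE. Scripts were tested on simulated data. Only a small part of the genes was changed there, far below the 62.5% called in these data. In that setting the gene-level test kept near its nominal error rate. Its error with as many changed genes as here was not checked. The planned diffSpliceDGE test, which pools the dispersion over the transcripts of a gene, called too many genes that had not been changed. A test with limma 3.58.1 on the log2 odds of each share, combined per gene by the Simes rule, made fewer such calls, though still more than its nominal rate allows, and was added for that reason after the data were seen.

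The alternatives were a replicate block, DESeq2 1.42.0, DESeq2's size factors, no filter, at least 10 counts in every library, counts from length-scaled TPM, protein-coding transcripts only, limma on log2(TPM + 1) and log2(TPM + 0.1), and each library left out in turn. Leaving out replicate 2 of both conditions was added after the data were seen. The genes and lists were chosen with earlier results of these data known. Named genes were the 6 genes, list genes with at least the largest and smallest change of each list, the 3 most similar profiles, and tested genes near Dppa3 on each side.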

Additional observations from a re-analysis of the deposited data

How the results depend on the processing

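Uhrf1, Uhrf2, Dppa3 and Pramel7 kept their direction and their side of the threshold under all alternatives run. With each library left out in turn, their log2 fold changes ranged from 0.93 to 1.01, from -0.52 to -0.47, from 0.41 to 0.58 and from 1.57 to 1.65. Usp7 ranged from -0.20 to -0.13, and lost its call in 5 of these 6 fits. It also lost its call with counts from length-scaled TPM (-0.09) and with limma on log2(TPM + 1) and log2(TPM + 0.1) (-0.18 in both). Hells ranged from -0.38 to -0.14. It gained a call with no filter (-0.26), with length-scaled TPM (-0.27), with limma at both pseudocounts (-0.37), without TKO-2i replicate 2 (-0.38) and without replicate 2 of both conditions (-0.29, added after the data were seen). The cause was not tested.

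A fit with replicate as a block called 12539 genes, beside 11361 without it. Hells was then called at -0.25 (adjusted p = 0.00053), and the number of the 6 genes called for transcript use was 3, beside 0. Deviations of same-numbered libraries from their group means had r = 0.24, 0.33 and 0.01 across genes for replicates 1, 2 and 3. TKO-2i replicates 1 and 2 correlated best with their own number, and TKO-2i replicate 3 with another number (0.12). The labels do not say what same-numbered libraries share, so these values do not settle whether they are paired. Genes called ranged from 10152 to 12568 with a library left out.

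For transcript use, diffSpliceDGE called 2 of the 6 genes with at least 10 counts in every library, between 0 and 2 with a library left out and 1 without replicate 2 of both conditions. The genes were Uhrf1 (adjusted p = 0.025) and Hells (0.042) with the count minimum, and Hells (0.015) without replicate 2. The limma test, run only on the main data and not under these alternatives, called 0. Since diffSpliceDGE called too many genes on simulated counts, these calls are weak. The log2 difference in the ratio of Pramel7 to Uhrf1 was 0.58 with protein-coding transcripts only. The log2 differences of ratios to Uhrf1, with a library left out, ranged from -0.54 to -0.37 for Dppa3, 0.81 to 0.88 for Pramel7, -1.45 to -1.27 for Uhrf2, -1.13 to -0.97 for Usp7 and -1.31 to -1.18 for Hells.

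Of 78 other list genes, 54 kept direction and call throughout. Under some alternatives calls were lost for Pcna, Lig1, Zbtb24, Dnmt1, Btrc, Csnk1d, Rbx1, Mcm6, Cdc6 and Sox17, and gained for Ehmt2, Hdac1, Mcm3, Mcm5, Mcm7, Pou5f1, Gata4 and Xpo1. Signs turned for the following genes, each without a call in the main test. With limma at pseudocounts of 1 and 0.1, values were -0.03 and -0.03 for Cul2, -0.09 and -0.09 for Eloc, -0.02 and -0.02 for Mcm3, -0.04 and -0.04 for Mcm5, -0.05 and -0.05 for Rrm1, -0.05 and -0.05 for Tyms, -0.04 and -0.05 for Ccne2, and 0.03 and 0.06 for Col1a1. With at least 10 counts in every library, values were -0.0042 for Rrm1 and -0.0019 for Ccne2. With protein-coding transcripts only they were -0.08 for Tyms and -0.00066 for Ccne2, and with length-scaled TPM 0.16 for Col1a1. Without TKO-2i replicate 1 Eloc had -0.01, without TKO-serum replicate 2 Xpo1 had 0.02, and without TKO-2i replicate 2 Ccne2 had -0.01. Col1a1 ranged from -0.19 to 0.05 with a library left out, and had 0.12 without replicate 2 of both conditions.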
